A study of Arabidopsis thaliana with 8 samples.

Results

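ExTQ002 is 1 of 8 diploid Arabidopsis thaliana strains whose leaf RNA was measured with 1 Agilent 1-colour array each, and its array is set here against the arrays of the 7 other strains. The array was chosen by its sample title, and every locus with an Arabidopsis gene identifier was used, which gave 25638 loci. Of these, 22376 passed the filter of being well above background on 1 array or more and were compared. A level is the log2 of the scanner's processed intensity minus the 75th percentile of its array, so that a level of 0 equals that percentile, and levels are compared between strains for the same gene and not between genes.

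The other strains are ExTQ003, ExTQ005, ExTQ013, ExTQ015, ExTQ016, ExTQ018 and ExTQ019, and all 8 descend from plants into which the gene for the restriction enzyme MseI had been brought and in which the enzyme had been switched on by 3 h of heat at 33 °C. The progeny grew on medium with 1% sucrose and 0.8% agar for 4 weeks in a cycle of 16 h light and 8 h dark. The strains thus share the treatment of their parents, and no untreated strain was used here. Whether a sample was a single plant or a pool, and whether the progeny still carried the MseI gene, is not stated in the labels.

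Ex-TAQing switches on a restriction enzyme inside the plant, which breaks the chromosomes at many places, and the rejoined chromosomes can be passed on with parts lost, gained or moved. In a rosette plant the shoot meristem first makes leaves, and cells in young leaves divide before they expand and differentiate. At the floral transition the mobile protein FT, made in leaves, and its partner FD switch on SOC1, FUL, AP1 and LFY at the shoot tip, and MADS-domain proteins then give the floral organs their identity.

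The titles and descriptions of several arrays disagree. The array titled ExTQ002 has a description that names ExTQ001, while the description of the array titled ExTQ013 names ExTQ002. The descriptions of the arrays titled ExTQ018 and ExTQ019 both name the same strain, which is neither of these. Titles were used throughout. The labels' molecule field says genomic DNA, whereas their protocols describe total RNA. By the scan dates in the file headers, ExTQ002 was grouped with ExTQ013, ExTQ015 and ExTQ003, and the other 4 arrays formed a second group. These groups are called slides here, although no slide label was used. Between 61.3% and 67.7% of the probes were well above background on an array, with 62.0% in ExTQ002. Over the tested genes the Pearson correlation of ExTQ002 with the others was highest for ExTQ013 (0.984), was 0.967 for ExTQ015 and was lowest for ExTQ016 (0.891). These are correlations across genes, which are not independent replicates. Leaf photosynthesis genes were bright in ExTQ002, with all 11 markers well above background and a median level of 4.49, inside the span of 4.15 to 4.89 in the others.

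More genes lay low than high in ExTQ002. A gene is described as outside the range when its level in ExTQ002 was beyond all 7 others and at least 1 log2 unit from their median. By this description 2031 genes lay below the range, which is 9.08% of the genes tested, and 734 lay above it, which is 3.28%. The same description gave 2771 genes below and 2205 above in ExTQ019, and 276 below and 244 above in ExTQ005. The median difference of all tested genes between ExTQ002 and the median of the others was -0.04, so a general offset of the array was small. The genes below the range were spread over the 5 chromosomes, from 8.79% of the genes of chromosome 5 to 9.42% of those of chromosome 1.

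**Figure D1:**
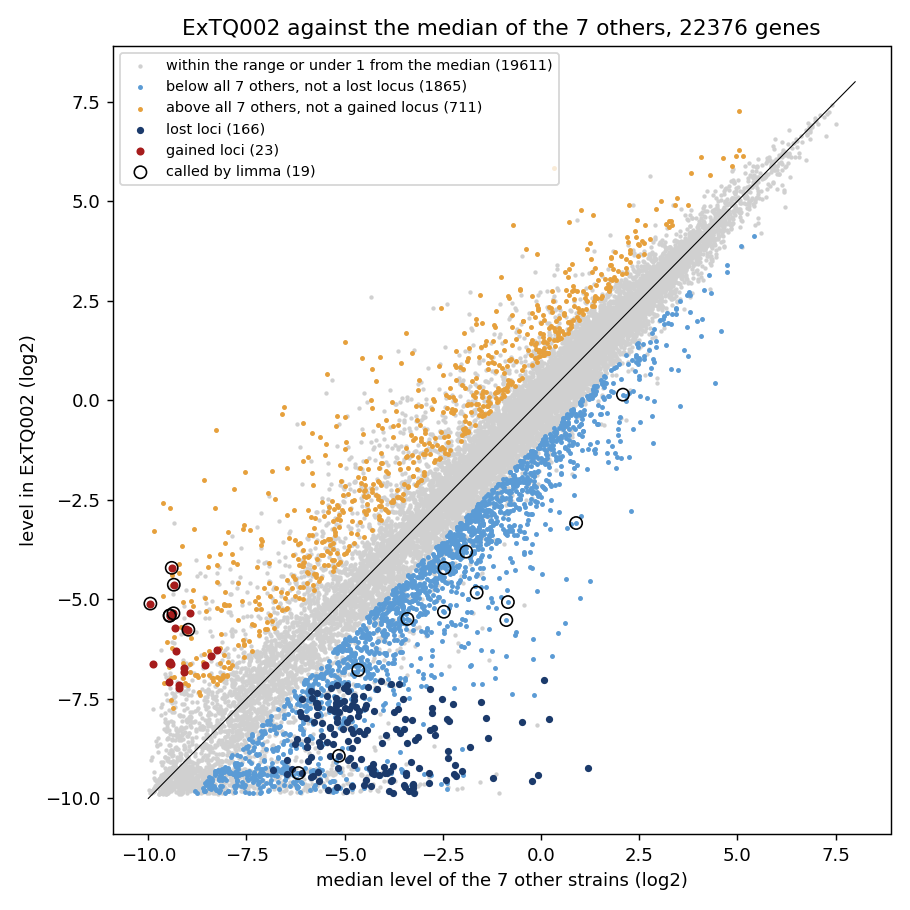
Level in ExTQ002 (vertical axis, log2) against the median level of the 7 other strains (horizontal axis, log2) for 22376 genes, 1 point each, with the line of equal levels. The 2031 genes below the range and the 734 above it include the 166 lost and the 23 gained loci, and open circles mark the 19 genes called by limma.

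With 1 array the only formal test rests on the spread among the 7 others and on the assumption that ExTQ002 varies as they do. The p-values cover the spread between strains, and 1 value against 7 cannot reach an exact permutation p under 0.125 for any gene. At an adjusted p under 0.05 (limma, Benjamini-Hochberg over all tested genes) and a difference of at least 1, 19 genes were called (0.0849%), of which 7 were higher (0.0313%) and 12 were lower (0.0536%), while 2142 genes had an unadjusted p under 0.05. All 7 higher calls were loci that passed the filter through ExTQ002 alone, so the filter fixed that they had to differ. They are given below as a description without a p. TBL19 and AT3G28560, among the lower calls, were not well above background in ExTQ002, so their level there was a background reading. Loci of this kind are also given without a p. Among genes above background on all 8 arrays 0 were called higher and 10 lower, with 1927 at an unadjusted p under 0.05. The calls also depended on the slides, since no lower call, TFL1 included, was kept with slide as a block. They depended as well on which strains were set against ExTQ002. Without ExTQ013 there were 347 calls and without ExTQ019 there were 101, both including all 19. Without ExTQ015 there were 2, and without ExTQ003, ExTQ005, ExTQ016 or ExTQ018 there were 0, although 1681 to 1880 genes had an unadjusted p under 0.05 in those 4 fits. The counts outside the range moved less, with 2324 below and 969 above when ExTQ013 was left out, but 1411 lay above without ExTQ019.

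TFL1, which keeps the shoot tip in an indeterminate state and delays flower formation, was the meristem gene among the 12 that fell. Its level was -5.07 in ExTQ002, and the others ran from -1.5 through a median of -0.84 to -0.43. No other strain came near ExTQ002, and the difference from their mean was -4.22 ± 0.35 (SE, adjusted p = 0.0222, limma). The largest fall among the called genes was that of AT2G47880, at -5.52 against -1.64 to -0.19 (difference -4.68 ± 0.50, adjusted p = 0.0385, limma). AT1G72230 stood at -3.08 against 0.39 to 1.78 (adjusted p = 0.0393, limma). Both were well above background in all 8 strains and their ranges did not overlap.

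Of the other called genes, LAC12, a laccase, stood at -4.83 against -1.94 to -0.88 in the others. TBL36, of the family that includes enzymes acetylating wall polysaccharides, stood at 0.14 against 1.70 to 2.19. TBL19 of the same family was not well above background in ExTQ002 and was so in all 7 others, so it was at least 4.59-fold lower. Here and below, such a bound holds for the scanner's processed intensities only and not for other background corrections. Across the alternative settings the difference of TBL19 ran from -3.66 to -0.43, so its size is uncertain. KP1, a kinesin, had a level of -4.22, below a narrow span of -2.59 to -2.24. Further called falls included EXL7, CYP71B37, AT4G37230 and AT3G28560, of which AT3G28560 was not well above background in ExTQ002 and was so in 6 of the 7 others.

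Floral organ identity genes had the lowest median difference of any list. All gene lists used here were chosen with earlier results of these data known. Their counts beside the share of all genes are therefore descriptions and not tests. Of 17 genes listed, 16 were tested, and 15 of these lay below the range in ExTQ002 against 9.08% of all tested genes. All 16 were lower than in every other strain, which 19.3% of all genes were. The median difference over the list was -5.34, beside -0.04 over all genes, and -4.05 over its members above background on all 8 arrays. None was called by the test. All 16 were well above background in each of the other 7 strains, and 10 were in ExTQ002. Without ExTQ013, whose label is in doubt, 15 of the 16 again lay below the range, against 10.4% of all genes.

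AP1, which starts flower formation and specifies sepals and petals, stood at -7.01 in ExTQ002 and was not well above background there. In the others it ran from -1.14 in ExTQ013 through a median of 0.07 to 1.13 in ExTQ018. This makes AP1 at least 128-fold lower in ExTQ002. AP3, the B-class gene for petals and stamens, stood at -8.08 against -2.48 to 0.80 with a median of -0.47, and was at least 121-fold lower. Its B-class partner PI was still well above background, at -1.22 against -0.14 to 2.83. In both the nearest strain was from the same slide, ExTQ013 for AP3 and ExTQ015 for PI.

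AG, the C-class gene for stamens and carpels, stood at -6.65 against -4.07 to -0.78 with a median of -1.78. SEP1, one of the cofactors that these proteins need, stood at -5.60 against -1.65 to 1.77, and its relative SEP2 at -5.85 against -2.03 to 1.88. SEP3 was less far away, at -2.38 against -0.73 to 1.98, a 9.36-fold difference from the median. Among genes of carpels and ovules, SHP2 was at least 16.5-fold lower and CRC, which acts in carpels and nectaries, at least 9.22-fold lower. For 12 of the 15 genes below the range ExTQ013 was the next lowest strain, and ExTQ015 was for the other 3. In the plot of gene lists by strain, ExTQ013 is accordingly second from the low end for floral identity, at -1.68 against -5.0 in ExTQ002 and up to 1.31 in ExTQ018.

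The labels name leaves for all 8 samples, yet floral genes were well above background in the 7 others. In these whole-tissue samples, fewer cells of a type and less RNA per cell cannot be told apart. Which organs the samples held beyond the labelled leaves was not tested.

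**Figure D2:**
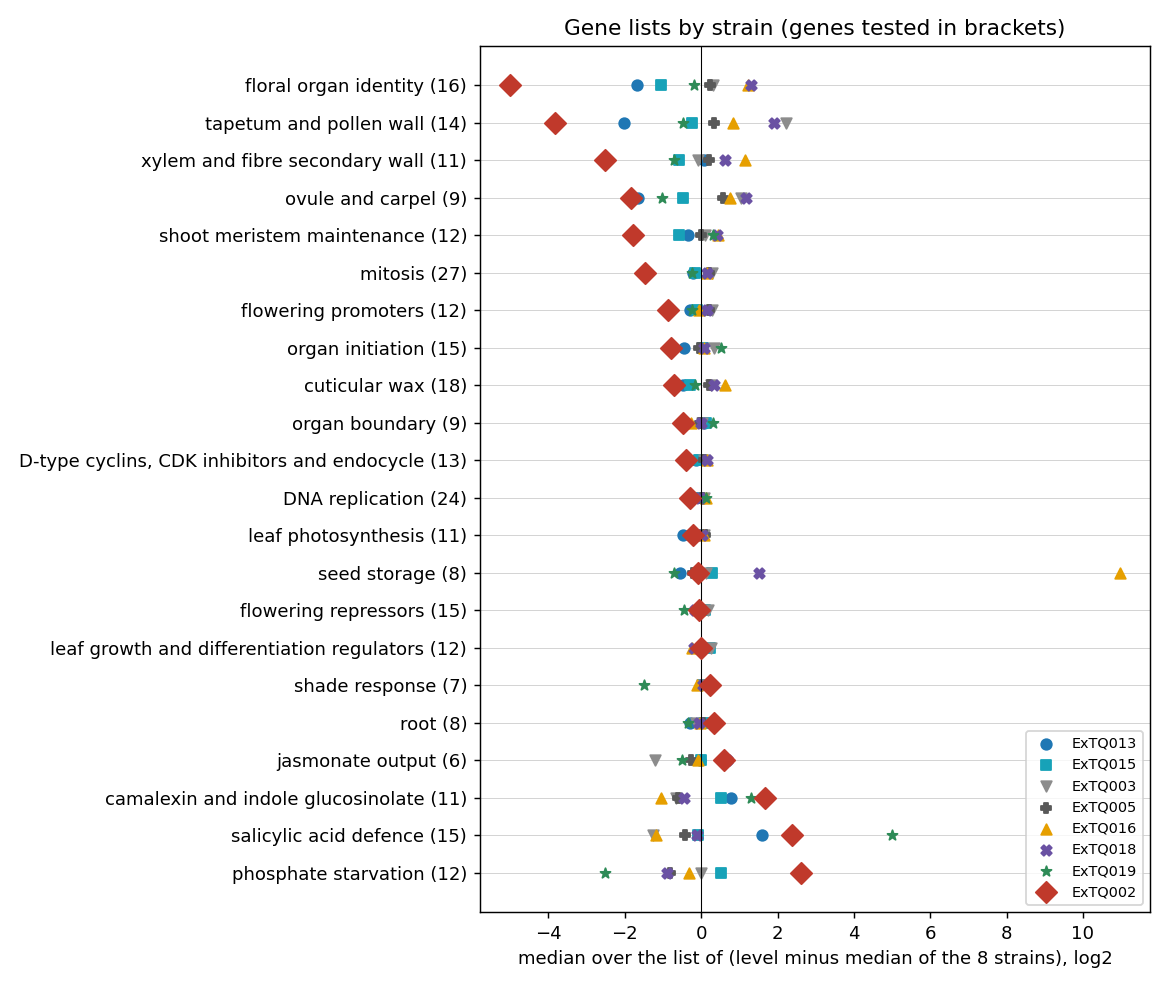
Each line is a gene list with the number of its genes tested, and each symbol is a strain, placed at the median over the list of the level minus the median of the 8 strains (log2). ExTQ002, the large red diamond, lies at the low end for floral identity (-5.0), tapetum (-3.83), secondary wall (-2.53), meristem (-1.79) and mitosis (-1.48), and near ExTQ013 at the high end for phosphate starvation (2.62).

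Genes that promote flowering were in part low. Of 12 tested promoters, 6 lay below the range against 9.08% of all genes, none lay above, and the median difference was -0.93. FT stood at -4.77 in ExTQ002, and the others ran from -2.41 in ExTQ013 through -0.86 to 1.58 in ExTQ016. That is a 15-fold difference from the median, and the adjusted p was 0.359 (limma), and the others were themselves far apart. SOC1, a target of FT and of the ageing pathway, was bright in all strains, at 2.77 against 3.29 to 4.42. FUL, which acts with SOC1, was at -0.42 against 1.05 to 2.58. SPL9 and SPL15, which promote flowering with plant age, were at -1.83 against -0.39 to 0.91 and at -5.78 against -4.99 to -2.74. FD, the partner of FT, was at -6.20 against -5.39 to -4.53. The day-length gene CO, at -5.04 against -5.0 to -4.29, and the clock gene GI, at 1.97 against 1.72 to 2.08, were near or inside the others.

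Repressors of flowering did not mirror this. None of 15 lay below the range and AP2 alone lay above it, at 0.45 against -1.0 to -0.13, the latter in ExTQ013. Over all genes 9.08% lay below and 3.28% above. The median difference of the list was -0.10. FLC, the repressor removed by cold, was at -5.92 against -9.38 to -4.05, and SVP, which represses FT, was at 3.96 against 3.26 to 3.97. Both were inside the range of the others.

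Shoot meristem genes were low in part. Of 12 tested, 6 lay below the range against 9.08% of all genes, and none lay above. The 6 include WUS, whose level in ExTQ002 was a background reading. TFL1 was called, as were 0.0536% of all genes on the low side. The median difference was -1.81. The class I KNOX genes, which keep meristem cells undifferentiated, were all low. STM stood at -1.42, with the others from 1.05 in ExTQ015 through 1.95 to 2.17, a 10.3-fold difference from the median (adjusted p = 0.0630, limma). KNAT1 stood at -3.22 against -0.20 to 1.21, KNAT2 at -3.12 against -1.03 to -0.01, and KNAT6 at -2.69 against -1.26 to -0.18. For each of these 4 genes ExTQ002 lay apart from the others and ExTQ015 was the nearest of them.

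The stem cell regulators WUS and CLV3 were too dim to place. WUS was not well above background in ExTQ002 and was so in 4 of the 7 others, and the same was true of CLV3. The receptor genes CLV1 (1.83 against 1.70 to 2.22) and CLV2 (-0.13 against -0.45 to 0.30) lay inside the range, as did the homeobox gene ATH1 at -1.69.

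**Figure D3:**
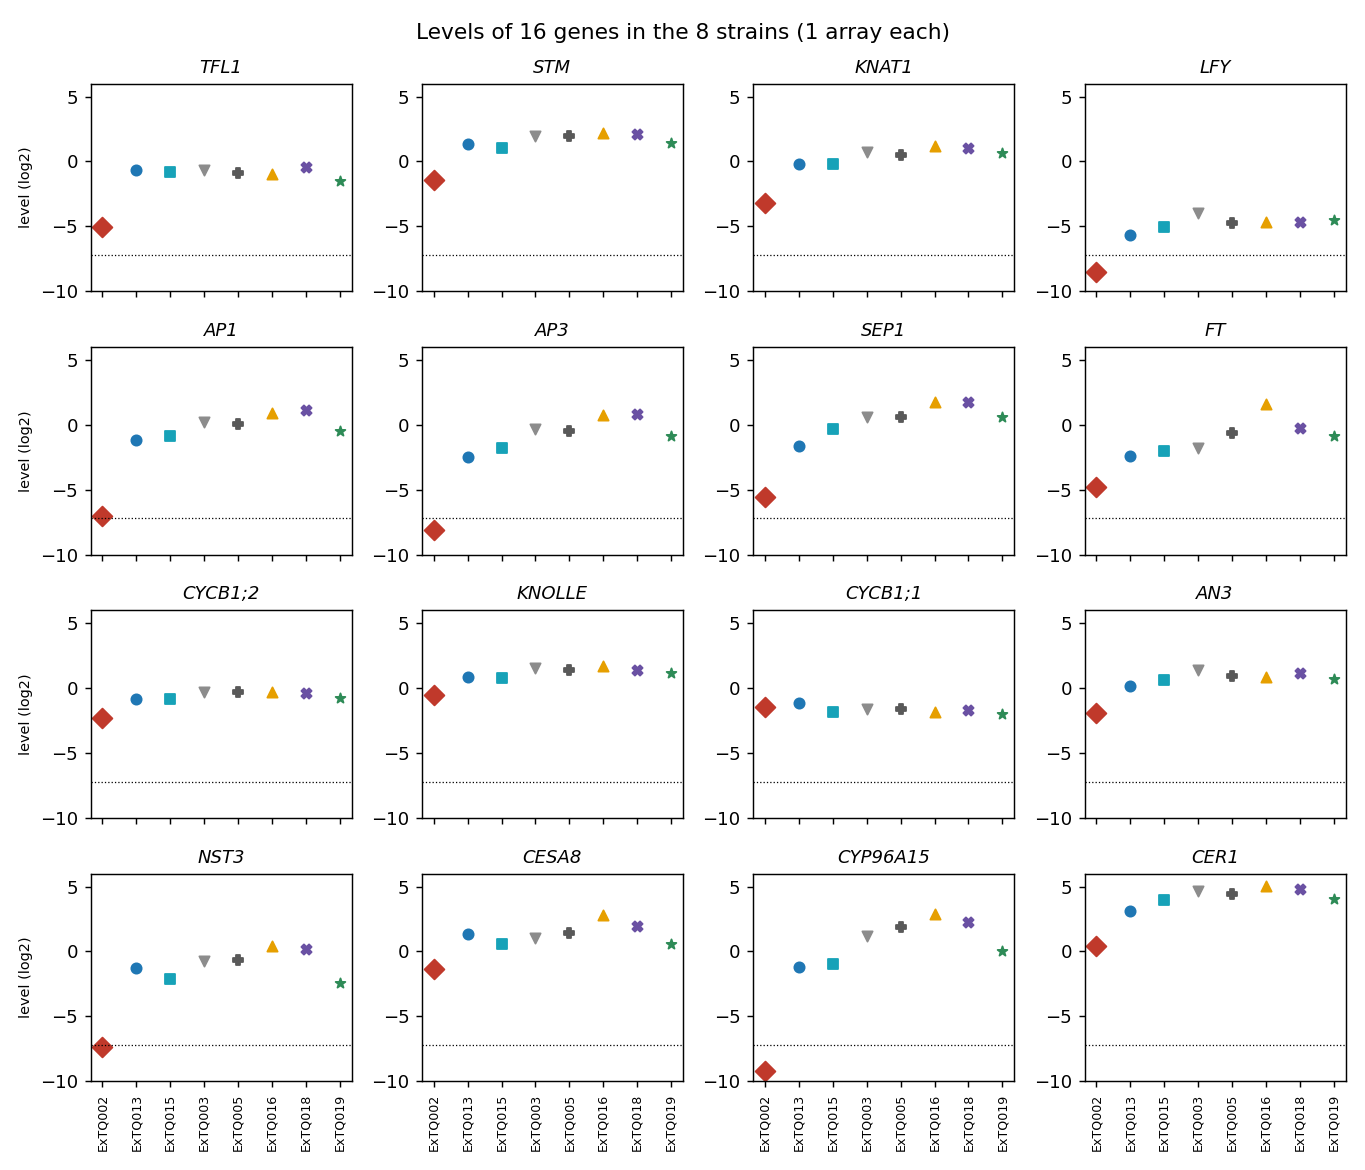
Levels (log2) of 16 genes in each of the 8 strains, 1 array per point, with the same vertical axis in every panel. The dotted line is the floor of the array with the highest one (-7.22), a floor being the dimmest level that still counted as well above background, and ExTQ002 is the lowest point in every panel except CYCB1;1, where it lies at -1.49 between -1.99 and -1.18.

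Genes of organ initiation and of organ boundaries were partly low. Among 15 initiation genes, 6 lay below the range, beside 9.08% of all genes. LFY, which turns new primordia into flowers, was not well above background in ExTQ002 and lay at least 6.95-fold below the mean of the other strains. ANT, which sustains growth of young organs, stood at -1.64 against 0.08 to 1.36. MP, which encodes an auxin response factor, stood at -0.29 against 0.36 to 1.5. PID, FIL, YAB3 and AIL7 differed from the median of the others by less than 1. Of 9 boundary genes, 4 lay below the range with the same 9.08% as background: LOF1, CUC3, CUC2 and CUC1. CUC3, which separates organs from the meristem, stood at -5.90 against -4.24 to -3.25, whereas BOP1, LSH3 and RAX1 lay inside the range.

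Mitotic genes were low almost throughout. Of 27 tested, all were well above background in all 8 strains, 23 lay below the range against 9.08% of all genes, and none lay above it. The median difference was -1.59 and the lowest adjusted p was 0.0630 (limma), so no member was called. Without ExTQ013 the count was also 23, against 10.4% of all genes. KNOLLE, the syntaxin of the cell plate, stood at -0.51, with the others from 0.79 through 1.36 to 1.68. That is 3.66-fold below the median, and the others spanned less than 1 log2 unit. HINKEL, a kinesin of cytokinesis, stood at -2.05 against -0.68 to -0.11. The spindle gene TPX2 was at -4.26 against -2.75 to -1.79, and CDC20.1, an activator of the anaphase-promoting complex, at -2.16 against -0.92 to 0.32.

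Cyclins and their kinases followed the same pattern with named exceptions. The mitotic cyclin CYCB1;2 stood at -2.27 against -0.86 to -0.27, CYCB2;1 at -6.81 against -5.12 to -4.04, and CDKB1;2 at -5.34 against -3.90 to -3.11. The 4 genes that were not below the range were CYCB1;1, CYCA2;2, CDKB2;2 and MAP65-3. CYCB1;1, a B-type cyclin known both as a marker of dividing cells and for its induction by DNA damage, stood at -1.49 against -1.99 to -1.18. Its level in ExTQ002 was the second highest of the 8 strains, below ExTQ013. CDKB2;2 stood at -2.23 against -3.33 to -1.98, and the nearly related CDKB2;1 at -2.08 against -1.37 to -0.53. Probes for such related genes may share signal, so a difference between them is less certain. MAP65-3 was below the median at -3.06, but ExTQ019 was lower still at -3.38.

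DNA replication genes lay closer to the others. Of 24 tested, 14 were lower than in all 7 others against 19.3% of all genes. Only 1 lay below the range, a smaller share than the 9.08% of all genes, and the median difference was -0.34. That 1 was AT5G10400, a histone H3 gene, at 0.83 against 1.12 in ExTQ013 and up to 2.20. Histone H3 copies are nearly identical, so their probes may share signal. MCM7, a subunit of the replicative helicase, stood at -0.38 against 0.21 to 0.63, a difference from the median of -0.86. PCNA1, the sliding clamp of replication, was inside the range at -1.53 against -1.59 to -0.86. TSO2, a subunit of ribonucleotide reductase, was at 3.51 against 2.78 to 3.66. Whether the mitotic and the replication lists differ was not tested, and the values are given side by side.

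Regulators of entry into division and of the endocycle, in which DNA is copied without division, were mixed. Of 13 tested, 4 lay below the range, beside 9.08% of all genes, and none above. CYCD3;1, a D-type cyclin that promotes division in young leaves, stood at -1.5 against -0.19 to 0.54. CCS52B, an activator of the anaphase-promoting complex that is expressed in mitosis, stood at -2.48 against -1.66 to -0.52. Its relative CCS52A1, which promotes the endocycle, was higher than in every other strain, at -1.77 against -2.74 to -1.98, with a difference of 0.56 that did not reach 1. SIM, an inhibitor of cyclin-dependent kinases in the endocycle, was at -0.54 against -0.36 to 1.08. Over the list the median difference was -0.46.

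Leaf growth regulators were mixed. AN3, a coactivator that maintains division in young leaves, stood at -1.90 against 0.16 in ExTQ013 through 0.85 to 1.43, a 6.72-fold difference from the median (adjusted p = 0.0661, limma). Among the growth-regulating factors that AN3 binds, GRF9 stood at -5.14 against -3.65 to -2.25 and GRF5 at -3.47 against -1.86 to -0.83. GRF3 and GRF4 lay inside the range, and GRF1 and GRF2 were lowest in ExTQ002 by differences of -0.61 and -0.60. None of the TCP genes tested, of the class that ends division in leaves, lay below the range. TCP3 lay above the range, at 0.20 against -1.36 to -0.33, and TCP4 and TCP24 were higher than in all others by differences of 0.38 and 0.62. Of the 12 genes listed, 3 lay below and 1 above the range, beside 9.08% and 3.28% of all genes, and the median difference was -0.03.

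Photosynthesis genes, used as the check of leaf tissue, had a median difference of -0.27. RBCS1A, the small subunit of Rubisco, was at 7.03 against 6.68 to 7.26 and LHCB3, of the light-harvesting antenna, at 6.46 against 5.56 to 6.52. Of 11 tested, GLDP1, of photorespiration, and LHCB2.1 lay below the range, beside 9.08% of all genes. GLDP1 was at -0.34 against -0.22 in ExTQ013 and up to 0.88, so that ExTQ013 and ExTQ002 were both below the other 6.

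Tapetum and pollen wall genes, which mark anthers, were largely at background in ExTQ002. Of 14 tested, 4 were well above background there against 10 to 14 in the others, and 11 lay below the range against 9.08% of all genes. The median difference of -4.02 uses readings near background and is no exact size. It was -1.96 over the members above background on all 8 arrays and -1.15 with the deposited series values. LTP12, a lipid transfer protein of the tapetum, stood at -9.54 against -5.24 to -0.62 and was at least 34.3-fold lower. ACOS5, an enzyme of sporopollenin precursors, was at least 46.9-fold lower. The tapetum regulator AMS was at least 10.4-fold lower. ExTQ013 was the next lowest strain for 9 of the 11, and the list stood at -2.03 there against -3.83 in ExTQ002. LAP6, another enzyme of the pollen wall pathway, was inside the range at -0.96 against -1.45 to 0.40.

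Genes of ovules and carpels were examined as a list put together after levels had been seen, so its counts describe genes already known to include low ones. Of 9 tested, 5 lay below the range, beside 9.08% of all genes. AGO9 and AGO5, argonaute proteins of the germ line and its neighbours, were at least 27.2-fold and at least 34-fold lower. Over this list ExTQ013 was close, at -1.65 against -1.85 in ExTQ002. Seed storage genes were not well above background in ExTQ002, as in most others, while in ExTQ016 all 8 were well above it.

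Secondary wall genes of xylem and fibres were low together. Of 11 tested, 10 lay below the range against 9.08% of all genes. All 11 were lower than in every other strain, which 19.3% of all genes were, and the median difference was -2.61. NST3, a master regulator of fibre walls, stood at -7.38 against -2.41 in ExTQ019 through -0.75 to 0.41, a 99.5-fold difference from the median (adjusted p = 0.0785, limma). Its relative NST1 was not well above background in ExTQ002 and was at least 16.6-fold lower. The cellulose synthase genes of secondary walls were still well above background. CESA4 stood at -1.25 against 0.34 to 2.65, CESA7 at -1.73 against -0.06 to 2.55 and CESA8 at -1.32 against 0.56 to 2.82. LAC4, a laccase of lignin, stood at -4.68 against -2.18 to -1.05 (adjusted p = 0.0630, limma). Here ExTQ013 was not the nearest strain for any of the 10, ExTQ019 was for 6 and ExTQ015 for 4. PER64, a peroxidase of lignin deposition outside this list, was among the genes furthest below the others, at -4.96 against -0.01 to 2.55.

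Cuticular wax genes contained the largest difference of all tested genes. This list too was put together after levels had been seen. CYP96A15, the midchain alkane hydroxylase that makes stem wax alcohols and ketones, stood at -9.23 in ExTQ002 and was not well above background. In the others it ran from -1.18 in ExTQ013 through 1.2 to 2.85 in ExTQ016. It was at least 341-fold lower in ExTQ002 and was not called. CER1, of alkane formation, was well above background at 0.44 against 3.12 to 5.03, a 15.9-fold difference from the median. CER4, a reductase that makes primary alcohols, stood at -4.79 against -1.52 to 0.83, and WSD1, a wax ester synthase, was at least 24.4-fold lower. The activators SHN1 and SHN3 lay below the range, with SHN1 at least 12.7-fold lower.

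CER3, LACS1 and SHN2 completed the genes below the range. The elongase gene CER6 was inside the range at 3.57 against 3.29 to 4.03, as were the transporter genes CER5 and ABCG11 and the regulators MYB96 and MYB94. In all, 9 of 18 wax genes lay below the range, beside 9.08% of all genes, and none above, with a median difference of -0.77.

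Lost loci are those not well above background in ExTQ002 but well above it in all 7 others, with a gap of at least 1 to the lowest of them. There were 166, which is 0.742% of the tested genes, and 22 of them stand in a gene list. The count was 18 with normexp and 15 with the deposited series values. In the processed intensities the bounds of the 166 ran from at least 1.62-fold to at least 341-fold lower, with a median of 7.33-fold. These bounds do not carry over to the other 2 settings. Of them, TBL19 was called. After CYP96A15 the highest bound was that of MIF2, a mini zinc finger gene, which was at least 177-fold lower, at -8.01 against -3.94 in ExTQ019 and -1.72 to 1.96 in the other 6. AT5G22430 and AT1G66850, which have no symbol in the reference table, were at least 148-fold and at least 132-fold lower, followed by AP1 and AP3. OFP9, of the OVATE family, stood at -9.61, but ExTQ019 at -7.26 was far below the span of -3.28 to -2.02 of the rest. The next lowest strain was ExTQ013 for 94 of the 166, ExTQ019 for 46, ExTQ015 for 16 and another strain for 10. Lost loci lay on every chromosome, though not in equal shares. There were 57 among 5883 tested genes on chromosome 1, 26 among 3417 on chromosome 2 and 25 among 4435 on chromosome 3. Chromosome 4 held 17 among 3409 and chromosome 5 held 41 among 5232. A lost locus is a level without detectable signal, and the arrays do not tell a missing gene from a silent one.

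Gained loci are the reverse, well above background in ExTQ002 alone. There were 23, which is 0.103% of the tested genes, and none was in a list fixed for this comparison. Their levels in ExTQ002 were low, from -7.22 to -4.21, and their bounds ran from at least 1.37-fold to at least 11-fold higher with a median of 2.56-fold. Only 1, KUOX1, has a symbol in the reference table. Without ExTQ013 there were 58 gained loci and without ExTQ019 there were 35. With normexp and with the deposited series values there were 0.

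All 7 genes called higher were gained loci. AT3G32270 stood at -4.21, with readings near background of -9.89 to -8.88 in the others, and was at least 11-fold higher. AT1G28695 was at least 8.18-fold, AT4G05350 at least 5.89-fold, AT5G02730 at least 4.97-fold, AT5G56920 at least 4.80-fold, AT1G11655 at least 4.76-fold and AT5G36730 at least 3.74-fold higher. In the others these loci gave readings near background only. When the background was corrected with normexp from the raw spot signals, none of the 7 was called, and their differences shrank to between -0.064 for AT5G02730 and 0.61 for AT3G32270.

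**Figure D4:**
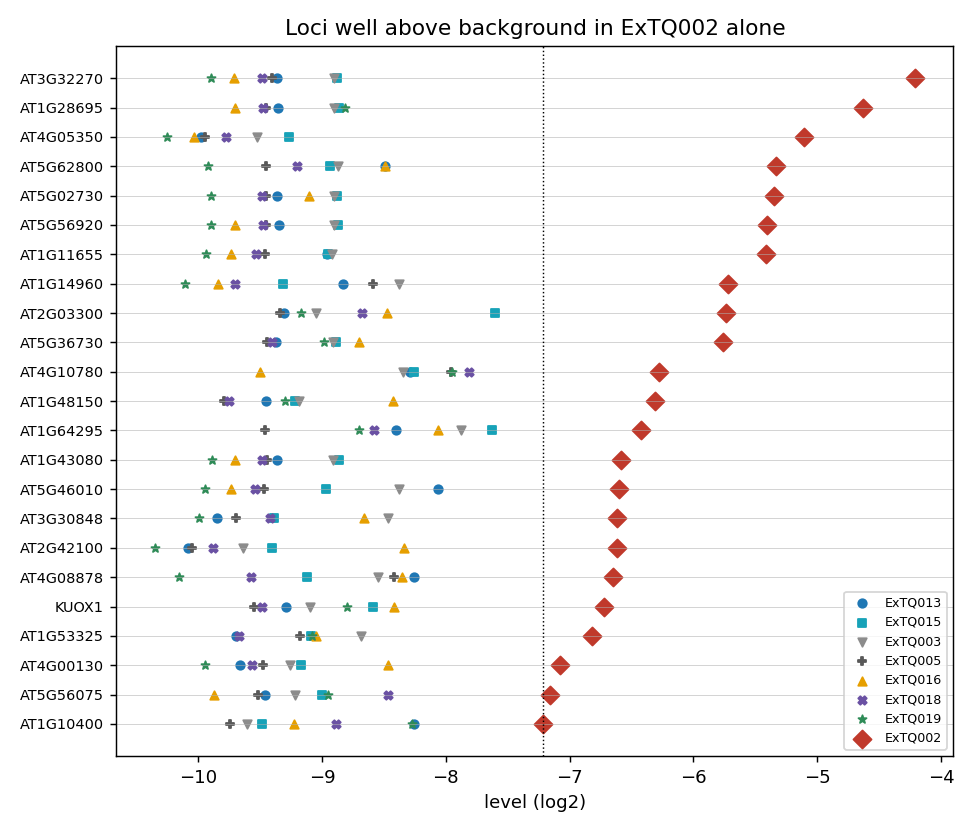
Levels (log2) of the 23 loci well above background in ExTQ002 alone, 1 line per locus and 1 symbol per strain. ExTQ002 runs from -7.22 to -4.21, all other strains lie to its left, and the dotted line is the highest array floor (-7.22).

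Neighbouring loci were examined because lost or moved chromosome parts would affect genes side by side. Runs of at least 3 consecutive tested loci outside the range in 1 direction numbered 37 on the low side and 8 on the high side in ExTQ002. The longest held 5 loci. ExTQ019 had 133 low and 93 high runs with up to 8 loci, ExTQ016 had 7 and 23, and ExTQ018 had 1 and 23. ExTQ003 had 2 and 0, ExTQ005 had 0 and 2, ExTQ013 had 0 and 1, and ExTQ015 had none. The cause of the runs was not tested.

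The longest low run was AT5G37940 to AT5G37980 on chromosome 5. AT5G37940 stood at -4.48, with the others from -1.75 in ExTQ019 through 0.64 to 1.29. AT5G37950 was not well above background in ExTQ002, at -7.72, and was at least 20.5-fold lower, but ExTQ019 was also low at -6.45 while the other 6 ran from -3.17 to -2.17. AT5G37960 stood at -2.51 against -1.79 in ExTQ019 and up to 0.85. AT5G37970 was not well above background in ExTQ002 and was so in 6 of the others, and the readings of -9.40 in ExTQ002 and -9.13 in ExTQ013 have no order. AT5G37980 was not well above background in ExTQ002 either, with a bound of at least 3.45-fold below the mean of the other 7. Of these ExTQ013 was lowest at -7.59, too dim for a bound against that strain alone. ExTQ019 was thus also low at the first 3 loci and ExTQ013 at the last 2. Of the 10 flanking loci, 5 on each side, 5 differed from the median of the others by less than 1. The rest went both ways. AT5G38010 (-2.42), AT5G38000 (-1.84) and AT5G37860 (-1.80) were low, and AT5G37840 (2.77) and AT5G38020 (2.54) were high. The median difference of the 10 was 0.07. Whether the DNA was present was not measured.

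**Figure D5:**
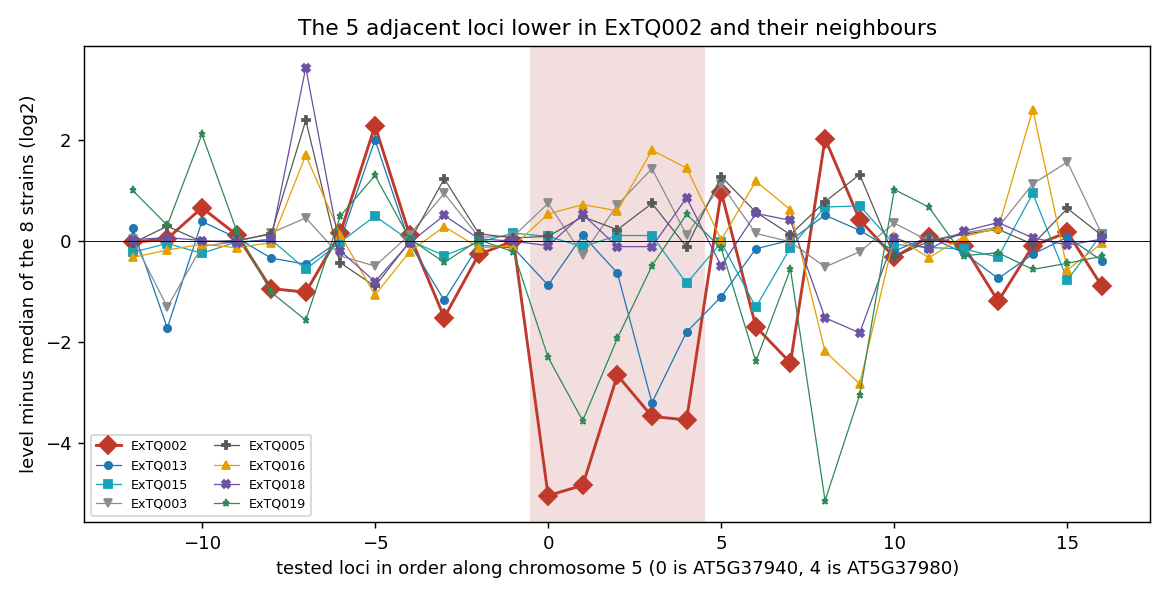
Level minus the median of the 8 strains (log2) for loci in order along chromosome 5, 1 line per strain, with the 5 loci of the run shaded. ExTQ002 was well above background at AT5G37940 (difference from the median of the others -5.12) and AT5G37960 (-2.76) and dim at the other 3, while ExTQ019 is also low at the first 3 and ExTQ013 at the last 2.

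Another low run, AT5G57785 to AT5G57810, held CER3, which acts with CER1 in alkane formation, at 0.95 against 1.6 to 3.83, and the tetraspanin gene TET15 at -5.36 against -5.15 to -2.59. A further low run, AT4G11190 to AT4G11211, included AT4G11210, which was at least 4.45-fold lower. On the high side, AT3G16420 to AT3G16460 held PBP1, JAL31, MLP-300B, JAL33 and JAL34, jacalin-type lectin genes. PBP1, whose product binds the beta-glucosidase PYK10, stood at 2.31 against 1.80 in ExTQ013 and -0.65 to 0.41 in the other 6. PYK10 itself lay above the range, at 3.30 against 2.89 in ExTQ013 and down to -0.29 in ExTQ019. AT4G12470 to AT4G12500 held AZI1 and EARLI1, lipid transfer-like genes, of which AZI1 acts in systemic immunity. AZI1 stood at 0.48 beside 0.09 in ExTQ013, and the other 6 ran from -6.77 to -3.22. AT5G66620 to AT5G66650 held DAR6, DAR5 and DAR3, with DAR5 at -1.5 beside -1.65 in ExTQ013. Members of these families are alike, so that their probes may share signal.

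Phosphate starvation genes were high in ExTQ002 and equally high in ExTQ013. The median difference over 12 tested genes was 2.77, and 6 lay above the range against 3.28% of all genes, with none below. All 12 differed by less than 0.3 between ExTQ002 and ExTQ013, and in all 12 the other 6 strains were lower than ExTQ002. SPX3, a phosphate sensor gene of the SPX family, stood at 2.59 beside 2.61 in ExTQ013, and the other 6 ran from -7.05 to -0.32. The phosphatase gene PEPC1 stood at 4.40 beside 4.33, with the rest from -4.35 to 1.40. The galactolipid synthase gene MGD3 stood at 2.43 beside 2.53, and the transporter gene PHT1;4 at 1.69 beside 1.57. The place of 6 genes above the range rests on small differences from ExTQ013, and without that strain all 12 lay above the range, against 4.33% of all genes. No member was called, and the smallest adjusted p was 0.538 (limma).

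Salicylic acid defence genes were above most strains but below ExTQ019. None of 15 lay outside the range, and all 15 were higher in ExTQ019 than in ExTQ002. In 14 of the 15 every other strain except ExTQ019 was lower than ExTQ002. PR1, a marker of this response, stood at -1.0, with 3.29 in ExTQ019 and -9.23 to -1.64 in the other 6. BGL2, a glucanase, stood at 3.62 beside 5.58 in ExTQ019 and 2.65 in ExTQ013. ICS1, which makes salicylic acid, was at -0.01 beside 1.79 and -0.44. The median difference was 2.75, and no member was called.

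Jasmonate outputs pointed both ways, with 2 of 6 genes below the range and 1 above, beside 9.08% and 3.28% of all genes. The storage protein genes VSP1 and VSP2 lay below the range, at 1.1 against 1.77 to 5.32 and at 1.74 against 2.34 to 5.77, with ExTQ013 the lowest of the others for both. The defensin gene PDF1.2 lay above it, at 2.04 against -5.30 to 1.91, with ExTQ015 close below. LOX2, of jasmonate synthesis, was inside the range at 5.95 against 4.33 to 6.03.

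Camalexin and indole glucosinolate genes, a list put together after levels had been seen, had 6 of 11 above the range, beside 3.28% of all genes, and a median difference of 1.94. PAD3, the last enzyme of camalexin synthesis, stood at 2.56 against -3.30 to 2.32, with ExTQ019 next. CYP71A13, an earlier enzyme of that route, stood at -1.82 against -8.16 to -2.74, and CYP81F4, which modifies indole glucosinolates, at 0.95 against -3.94 to -0.21. None was called (smallest adjusted p = 0.577, limma). Of 7 shade response genes, also listed after levels had been seen, PIL1 alone lay above the range, beside 3.28% of all genes. It stood at -1.58 against -5.40 to -2.96 in ExTQ013.

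The genes furthest above all others, among those well above background on all 8 arrays, included EXT4, an extensin of the cell wall, at 4.49 against -0.16 to 3.20. TPS04, a terpene synthase induced on attack, stood at -0.04 against -5.82 to -1.18. AT2G34655 stood at 1.93 against -2.58 to 0.30 and AT5G64120 at 3.42 against -0.49 to 2.22. For these last 2 and for EXT4 the next highest strain was ExTQ013, and for TPS04 it was ExTQ015. Root markers, which test for other tissue, were low in all strains apart from PYK10, with 5 of 8 well above background in ExTQ002 and 4 to 7 in the others.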

How the data were processed

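The scanner files hold intensity values that the authors made with Agilent Feature Extraction 11.0.1.1, per the file headers, without scaling between arrays. The deposited series table holds log2 values whose quantiles are nearly the same in each array, by a step the labels do not state. The submitters' processing notes also name limma.

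Marked outlier spots were left out, spots of a probe averaged, and the brightest probe stood for each of the 541 loci with 2 or more. The 75th percentile was subtracted per array. A locus was tested when well above background on at least 1 array. The fit used limma 3.58.1 in R 4.3.3 (lmFit, eBayes), checked on simulated data, and other steps used Python 3.11.15. A bound sets the bright mean against, per array, the higher of the dim probe's level and the dimmest level that still counted as well above background. It was computed in the main setting only. Symbols came from the RefSeq gene table, which held 25427 loci. Coordinates are not printed, because no source used here gives the array's build.

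The strain, the 18 gene lists and the 4 added ones were chosen with earlier results of these data known. Named genes are all called genes, up to 6 members outside the range per list, or else the 2 furthest, up to 15 lost and 15 gained loci, members of the 3 longest runs in each direction, and the 10 genes furthest above and below. On the low side, the runs AT1G24000 to AT1G24030, AT2G22590 to AT2G22620 and AT4G37230 to AT4G37250 were tied at 4 loci with 2 of those named. They are not described as runs. Other list members are named to show where a list was not uniform and were chosen after their values were seen. The normexp alternative used median spot intensities as deposited, since mean ones are not listed in the files. Of the listed genes, LAS, AGL13, TSF, DYT1, RHD6, EXPA7 and EXPA18 were too dim to test. Values of a few genes are not reported here. Precision is limited by the number of arrays, 1 per strain.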

Additional observations from a re-analysis of the deposited data

Results flagged for a closer look

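Values of 184 list medians and named genes were searched for 1 strain among the 7 others that stood far from the rest, which chance alone gives in about 1 of 20 groups, and 12 were found. ExTQ013 was the odd one for CYCA2;4 (-5.27, low), PBP1 (1.80, high), GLDP1 (-0.22, low), SQD1 (4.05, high) and VSP2 (2.34, low). In all 5 of these genes it lay on the side of ExTQ002. ExTQ019 was low for OFP9 (-7.26), AT5G37950 (-6.45) and the shade response list (-1.50). ExTQ016 was high for CUC1 (-4.40), SESA3 (5.13) and the seed storage list (10.97). ExTQ003 was high for GRF5 (-0.83).

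Among 11235 probes without a locus name, which no comparison used, 40 were well above background in ExTQ002 alone, with levels up to -4.95. A further 12 were well above background in the 7 others and not in ExTQ002.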

How the results depend on the processing

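No paired analysis was possible because each strain has 1 array. Calls were the least stable result. With 1 other strain left out at a time, 0 to 75 genes were called higher, 0 to 272 lower, 716 to 1411 lay above the range (the highest without ExTQ019) and 24 to 58 loci were gained (the highest without ExTQ013, and 35 without ExTQ019). Counts of genes called higher and lower were 0 and 0 with normexp, with the deposited series values and against the same slide, where 1067, 1940 and 1866 genes had an unadjusted p under 0.05 (limma). They were 4 and 0 with slide as a block, 0 and 1 with eBayes trend and robust settings (unadjusted 2197), 13 and 171 at an adjusted p under 0.1, and 11 called higher with quantile normalization. Restricting the test to genes above background on all 8 arrays left 0 called higher (unadjusted 1927), and by construction 0 lost and 0 gained loci.

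The range counts were 386 above and 1198 below with normexp, 893 below with the series values and 1320 above against the same slide. Lost loci numbered 18 with normexp and 15 with the series values, gained loci 0 and 0, and 52 were gained against the same slide. List medians that moved beyond the spread between strains kept their sign under most settings. With the series values they were -2.68 for floral identity, -1.15 for tapetum, -1.83 for secondary wall, -0.60 for ovule and carpel, -0.77 for meristem, -0.93 for mitosis, -0.59 for flowering promoters, -0.18 for DNA replication, -0.21 for organ boundary, -0.17 for organ initiation and 0.088 for root. With normexp they were -3.01 for floral identity, -1.50 for tapetum, -0.94 for meristem, -1.19 for mitosis, -0.58 for flowering promoters, -0.38 for organ initiation and -0.014 for root, the last with its sign turned. With quantile normalization they were -0.24 for DNA replication, -0.68 for flowering promoters and 0.79 for root. Against the same slide they were -3.90 for floral identity, -1.10 for meristem, -0.34 for leaf growth regulators and, with the sign turned, -0.54 for shade response. Among genes above background on all 8 arrays, floral identity was at -4.05 and tapetum at -1.96, and without a filter organ boundary was at -0.78. Differences of 5 dim gained loci turned with normexp, to -0.057 for AT1G11655, -0.092 for AT2G42100, -0.41 for AT3G30848, -0.064 for AT5G02730 and -0.34 for AT5G46010. The cause of these shifts was not tested.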
